A study of Homo sapiens with 4 samples.

Results

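The genes examined encode the subunits of the respiratory chain and ATP synthase that are made from nuclear DNA. They were taken from the expression table by symbol: all NDUFA, NDUFB, NDUFC, NDUFS and NDUFV genes with a number, SDHA to SDHD, and every symbol that begins with UQCR, COX4 to COX8 or ATP5. This gave 86 of the 18806 gene symbols, of which 37 carry a complex I symbol, 4 belong to complex II, 9 to complex III, 17 to complex IV and 19 to complex V. The rule reads names, so it also takes in 7 symbols that are not structural subunits, such as read-through transcripts, and it places NDUFA4, now counted as a subunit of complex IV, under complex I. RNA was sequenced from Huh7, a human hepatocellular carcinoma line. A single clone that expressed Cas9 was transduced with lentiviral guide RNA and selected with hygromycin B. One group received a non-targeting guide (sgNS, called WT in the labels) and the other a guide against METTL16 (METTL16 KO, called a knockdown in the labels). There were 2 libraries per group, 4 in all. The METTL16 KO libraries were taken as replicates of 1 guide, which the sample titles do not state. METTL16 is an RNA methyltransferase that installs m6A on a small set of RNAs. The question was which of the respiratory chain transcripts changed upon METTL16 KO in these cells.

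Oxidative phosphorylation takes place in the inner mitochondrial membrane. Complexes I and II pass electrons from NADH and succinate to coenzyme Q, complex III passes them to cytochrome c, and complex IV reduces oxygen with them. Complexes I, III and IV pump protons, and complex V, the ATP synthase, uses the proton gradient to make ATP. Most subunits are encoded in the nucleus and imported, while a few of the most hydrophobic ones come from mitochondrial DNA, and these are not analysed here.

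Levels are TPM (the unit of the table), a share of a fixed total that is corrected for gene length, and keep no read counts, so the sequencing depth is unknown. Fold changes are METTL16 KO over sgNS on the log2(TPM + 0.1) scale, which understates changes of genes with low values. They were tested by limma over 11971 genes, those whose mean reached 1 TPM, and a gene was called at a Benjamini-Hochberg adjusted p under 0.05. For 1 gene, exact permutation of 2 against 2 libraries (two-sided) reaches no p below 0.33, so the p-values rest on the spread that limma estimated across genes, and nothing in the labels says that the replicates of a group were transduced separately. METTL16 itself, on the minus strand of chromosome 17 (GRCh38, 2405562 to 2511891), measured 26.3 and 25.1 TPM in sgNS against 17.6 and 18.8 TPM upon METTL16 KO, so its transcript fell by 0.50 on the log2 scale (SE 0.062, adjusted p = 2.43e-05) and was still present. Hepatocyte markers summed to between 30460 and 30490 TPM in sgNS and to between 34270 and 34640 TPM in METTL16 KO, but the members differed: 7 were higher and 3 lower, from AFP at 1737 and 1793 TPM in sgNS against 10387 and 10197 TPM upon METTL16 KO to APOA2 at 12409.8 and 12347 TPM against 3277 and 3375 TPM. Summed endothelial markers measured 5.15 and 4.76 TPM in sgNS against 3.13 and 2.73 TPM upon METTL16 KO, with KDR and TEK listed at 0 in all libraries. Summed fibroblast markers measured 3.65 and 3.47 TPM in sgNS against 4.73 and 4.40 TPM upon METTL16 KO. Summed immune markers came to 1515 and 1557 TPM in sgNS against 920.4 and 934.5 TPM upon METTL16 KO, nearly all of it LYZ. Of the 3 tested, LYZ was lower and 2 were higher. CD68 measured 3.40 and 2.72 TPM in sgNS against 8.86 and 8.57 TPM upon METTL16 KO. CD14 measured 1.21 and 0.91 TPM in sgNS against 1.61 and 1.66 TPM upon METTL16 KO. The pan-leukocyte gene PTPRC did not exceed 0.48 TPM. The part of these markers in the results below was not tested. In RNA from whole cultures, fewer cells of a type and less RNA per cell cannot be told apart.

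The respiratory chain genes were among the most abundant transcripts of these cells. Their median level was 204 TPM, against 24.5 TPM over all genes tested, and 46 of the 78 tested ranked in the top 1000. Together they made up 2.27% of all transcripts in both sgNS libraries and 2.35% in both METTL16 KO libraries. The replicates lay close to each other, with a median absolute log2 difference of 0.042 within sgNS and 0.040 within METTL16 KO.

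Upon METTL16 KO the genes moved in both directions, and with TPM as deposited their shares lay near those of the transcriptome. Of the 78 tested, 41 rose, 25 fell and 12 did not pass. That is 52.6% higher and 32.1% lower, beside 50.1% higher and 25.6% lower among all genes tested. The median log2 fold change was 0.10 over the tested respiratory chain genes and 0.16 over all genes. The groups did not overlap for 68 of the 78, or 87.2%, beside 87.4% of all genes. TPM values depend on the total: scaling each library by the median of its gene ratios (median-ratio scaling) moved the median of all genes by -0.16, to -0.0016. With that shift taken out, 21 of the 78 (26.9%) were higher and 36 (46.2%) lower, beside 36.4% higher and 36.5% lower among all genes, and the median of the tested respiratory chain genes turned to -0.066. Under quantile normalization 31 were higher and 31 lower (39.7% each), beside 36.9% higher and 35.5% lower of all genes. Under the 3 scalings alike, 21 were called higher (26.9%, beside 34.8% of all genes) and 24 lower (30.8%, beside 25.3%). At the fold threshold, an unadjusted p under 0.01 and a log2 fold change of at least 1 in size, 4 genes fell (NDUFS3, UQCRC1, NDUFA6 and NDUFB8) and 1 rose (UQCR10). Among all genes 3.75% passed it downward and 7.69% upward. The plot of members by library shows how the changes were spread over the complexes.

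**Figure D1:**
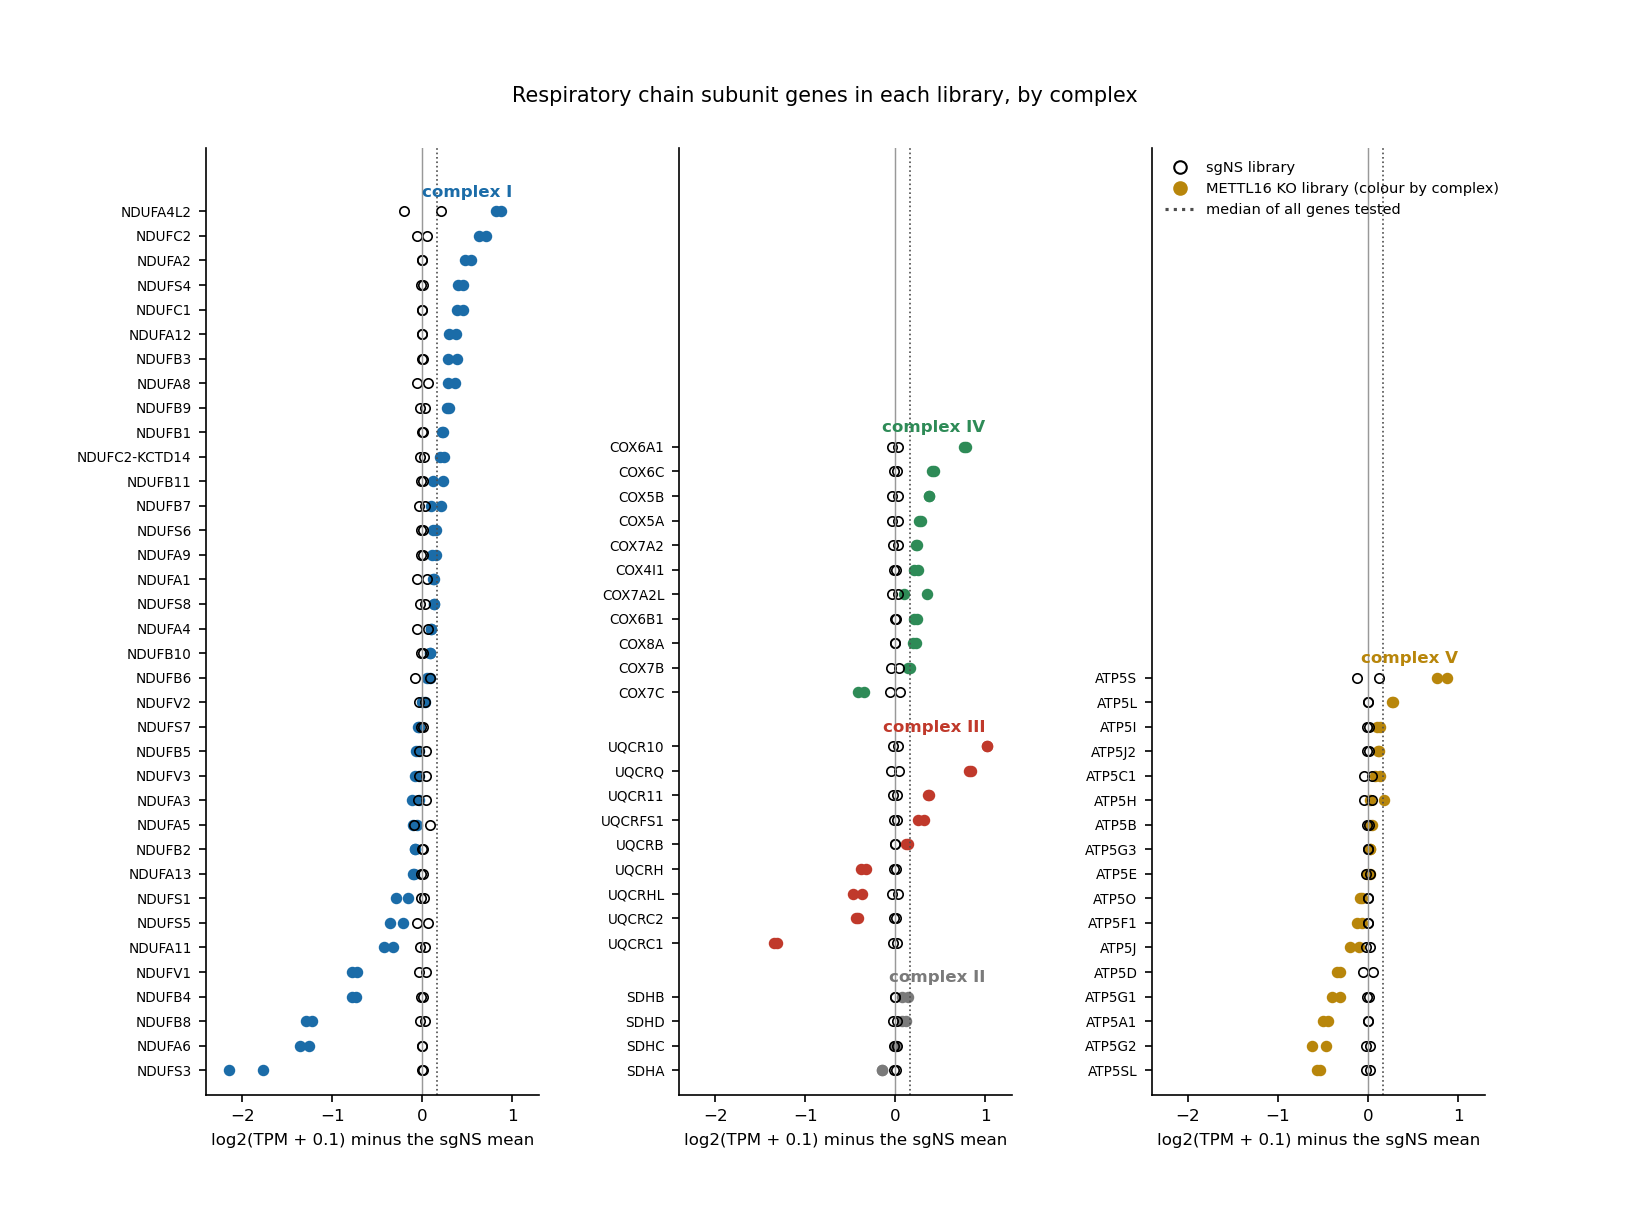
Level of the tested respiratory chain genes reported here in each library, as log2(TPM + 0.1) minus the sgNS mean (horizontal axis), grouped by complex and ordered by fold change; open circles are the 2 sgNS libraries, filled circles the 2 METTL16 KO libraries, and the dotted line is the median fold change of all genes tested (0.16). NDUFS3, NDUFA6, NDUFB8 and UQCRC1 stand far to the left, UQCR10 is farthest to the right, and 10 of the 11 complex IV genes lie to the right of 0.

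In complex I, which oxidises NADH, 3 of the 4 falls past the fold threshold sat beside many smaller rises. Of its 37 genes 19 rose (51.4%), 11 fell (29.7%) and 7 did not pass, near the 50.1% higher and 25.6% lower among all genes. The median log2 fold change was 0.084, which turned to -0.082 under median-ratio scaling. Under the 3 scalings alike, 9 were higher and 10 lower (24.3% and 27.0%, beside 34.8% and 25.3% of all genes). The 7 nuclear core subunits, which carry the flavin, the iron-sulphur clusters and the quinone site, leaned downward. Of them 4 fell (57.1%, beside 25.6% of all genes), 1 rose and 2 did not pass. The 4 that fell did so under all 3 scalings. The summed level of the 7 was 1929 and 1890 TPM in sgNS and 1660 and 1661 TPM in METTL16 KO, a change of -13.1%.

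NDUFS3, a core subunit of the module that binds quinone, changed most. It lies on the plus strand of chromosome 11 (47565336 to 47584562) and measured 129.8 and 129.0 TPM in sgNS against 29.2 and 37.9 TPM upon METTL16 KO. Both METTL16 KO libraries were far below both sgNS libraries, and they differed more from each other than the sgNS pair did. The log2 fold change was -1.96 (SE 0.092, adjusted p = 1.26e-08), a level 0.259 times that of sgNS. Several coding genes overlap its locus, and none of the 3 tested here moved as far. CELF1 had a log2 fold change of 0.067 (adjusted p = 0.220, and -0.098 under median-ratio scaling). KBTBD4 had a log2 fold change of -0.048 (adjusted p = 0.641, and -0.22 with a lower call under quantile normalization). PTPMT1, a mitochondrial phosphatase, was called higher at 0.32 (adjusted p = 0.00101). It passed neither under median-ratio scaling (0.15) nor under quantile normalization (0.13). The strand setting of the authors' counting is not given in the sources used here.

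Other core genes moved less. NDUFV1, which binds the flavin where NADH is oxidised, measured 475 and 450.1 TPM in sgNS against 281 and 269.8 TPM upon METTL16 KO, with a log2 fold change of -0.75 (SE 0.036, adjusted p = 1.74e-08). NDUFS1, an iron-sulphur subunit beside it, fell from 73.2 and 74.8 TPM to 66.1 and 60.4 TPM (log2 fold change -0.23, adjusted p = 0.00184). For both the groups did not overlap. NDUFS8, an iron-sulphur subunit on the way to quinone, was the only core gene called higher, with a log2 fold change of 0.13 (adjusted p = 0.00248) that turned to -0.039 under median-ratio scaling. NDUFS7 (-0.043, adjusted p = 0.318) and NDUFV2 (0.012, adjusted p = 0.758, and -0.15 under median-ratio scaling) did not pass. A ratio of 2 genes within a library does not change under median-ratio scaling, which divides a library by a single factor. Quantile normalization can change it. With TPM as deposited, NDUFS8 stood at 4.97 and 4.80 times NDUFS3 in the sgNS libraries and at 23.6 and 18.2 times in the METTL16 KO libraries. The pair joins the only core gene called higher and the one that fell most, so a shifted ratio follows from that choice.

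Among the 27 accessory subunits, which surround the core and are needed for its assembly and stability, 15 rose, 7 fell and 5 did not pass. That is 55.6% higher and 25.9% lower, beside 50.1% and 25.6% of all genes. Under median-ratio scaling 8 were higher (29.6%) and 12 lower (44.4%), beside 36.4% and 36.5% of all genes. NDUFA6, a small LYR protein of the matrix arm (chromosome 22, minus strand, 42085526 to 42090884), measured 249.6 and 249.7 TPM in sgNS against 105 and 97.1 TPM upon METTL16 KO. The log2 fold change was -1.31 (SE 0.042, adjusted p = 6.92e-10). NDUFB8, a subunit of the membrane arm (chromosome 10, minus strand, 100523740 to 100530000), measured 165 and 159 TPM in sgNS against 66.1 and 69.2 TPM upon METTL16 KO (log2 fold change -1.26, SE 0.042, adjusted p = 9.21e-10). The genes thus stood at 0.404 and 0.418 times their sgNS level, with the replicates of each group close together. HIF1AN, which overlaps NDUFB8, went the other way, with a log2 fold change of 0.71 (adjusted p = 1.96e-07). NDUFB4, also of the membrane arm, measured 154 and 157 TPM in sgNS against 90.4 and 93.3 TPM upon METTL16 KO (log2 fold change -0.76, adjusted p = 2.18e-08). NDUFA11 (-0.37) and NDUFS5 (-0.28) fell as well.

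The accessory subunits that rose did so by less. NDUFC2, of the membrane arm, measured 25.4 and 23.5 TPM in sgNS against 39.9 and 38.0 TPM upon METTL16 KO (log2 fold change 0.67, SE 0.059, adjusted p = 1.67e-06). Its reads are shared with the read-through transcript NDUFC2-KCTD14, so the split between these 2 symbols is uncertain. NDUFC2-KCTD14 was called higher at 0.22 (adjusted p = 0.00147). It passed neither under median-ratio scaling (0.053) nor under quantile normalization (0.096). NDUFA2, of the NADH-oxidising module, went from 83.1 and 82.9 TPM to 116 and 121 TPM (log2 fold change 0.51, adjusted p = 7.38e-07). NDUFS4 (0.42) and NDUFC1 (0.42) followed, each with non-overlapping groups and called higher under the 3 scalings. Members of the same arm thus went opposite ways: NDUFC2 stood at 0.155 and 0.148 times NDUFB8 in sgNS and at 0.604 and 0.549 times in METTL16 KO. Both were called, in opposite directions, so this shift follows from the choice of the pair. NDUFA4, which sits in complex IV, had a log2 fold change of 0.099 (adjusted p = 0.0448, and -0.067 under median-ratio scaling). Its low paralog NDUFA4L2 measured 1.59 and 1.17 TPM in sgNS against 2.49 and 2.58 TPM upon METTL16 KO (log2 fold change 0.85, SE 0.19, adjusted p = 0.00191).

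Complex II, which is also the succinate dehydrogenase of the TCA cycle, changed little. SDHA, the flavoprotein, measured 52.5 and 53.2 TPM in sgNS against 47.9 TPM in both METTL16 KO libraries (log2 fold change -0.14, SE 0.045, adjusted p = 0.0139), and it was the only gene of the complex called in the same direction under the 3 scalings. The iron-sulphur subunit SDHB (0.11, adjusted p = 0.0225) and the membrane anchor SDHD (0.10, adjusted p = 0.0444) were called higher but turned to -0.053 and -0.065 under median-ratio scaling. The other anchor, SDHC, did not pass (0.0094, adjusted p = 0.832, and -0.16 under median-ratio scaling). The summed level was 359 and 364 TPM in sgNS and 368 and 378 TPM in METTL16 KO.

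Complex III, the cytochrome bc1 complex, was split. All 9 genes that the rule reached were called, 5 higher (55.6%, beside 50.1% of all genes) and 4 lower (44.4%, beside 25.6%). The 4 lower include UQCRHL, a copy of UQCRH that is not counted as a structural subunit. The subunit CYC1, which the rule does not reach, did not pass (-0.0099, adjusted p = 0.821). Under the 3 scalings alike 4 were called in each direction (44.4% each, beside 34.8% higher and 25.3% lower of all genes). The genes of both core proteins and of the hinge protein fell, and those of small subunits and of the Rieske protein rose. UQCRC1, the first core protein (chromosome 3, minus strand, 48599002 to 48610976), measured 201 and 195 TPM in sgNS against 78.0 and 79.7 TPM upon METTL16 KO. The log2 fold change was -1.33 (SE 0.038, adjusted p = 3.42e-10), to 0.399 times the sgNS level. UQCRC2, the second core protein, fell from 169.5 and 171 TPM to 126 and 128 TPM (log2 fold change -0.42, adjusted p = 1.16e-06). UQCRH, the hinge protein that helps cytochrome c bind, fell from 267 and 272 TPM to 207 and 215 TPM (-0.35, adjusted p = 3.55e-06). Its near copy UQCRHL had a log2 fold change of -0.42, and reads of the pair can be shared between them, so their separate values are uncertain.

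UQCR10, a small subunit beside cytochrome c1, lies on the plus strand of chromosome 22 (29767369 to 29770413). It measured 145 and 150.4 TPM in sgNS against 299.0 and 298 TPM upon METTL16 KO. Both METTL16 KO libraries stood at about the same level, with a log2 fold change of 1.02 (SE 0.035, adjusted p = 1.13e-09), which was 0.85 under median-ratio scaling and 0.94 under quantile normalization. UQCRQ, a small subunit that contacts cytochrome b, measured 75.4 and 70.7 TPM in sgNS against 129 and 131 TPM upon METTL16 KO (0.83, SE 0.044, adjusted p = 2.94e-08). UQCR11 (0.37, adjusted p = 2.57e-06) and the Rieske iron-sulphur protein UQCRFS1 (0.29, adjusted p = 2.64e-05) rose by less. UQCRB, a further small subunit, was called higher at 0.13 but turned to -0.033 under median-ratio scaling and to -0.0044 under quantile normalization. UQCR10 stood at 0.722 and 0.771 times UQCRC1 in sgNS and at 3.83 and 3.74 times in METTL16 KO. They are the largest rise and the largest fall of the complex, so a shifted ratio follows from that choice. It does not stand for small subunits against core proteins in general, since the small subunit UQCRH fell, as UQCRC2 did. The summed level of the complex hid the opposite changes of its genes, at 1366 and 1362 TPM in sgNS and 1424 and 1430 TPM in METTL16 KO.

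**Figure D2:**
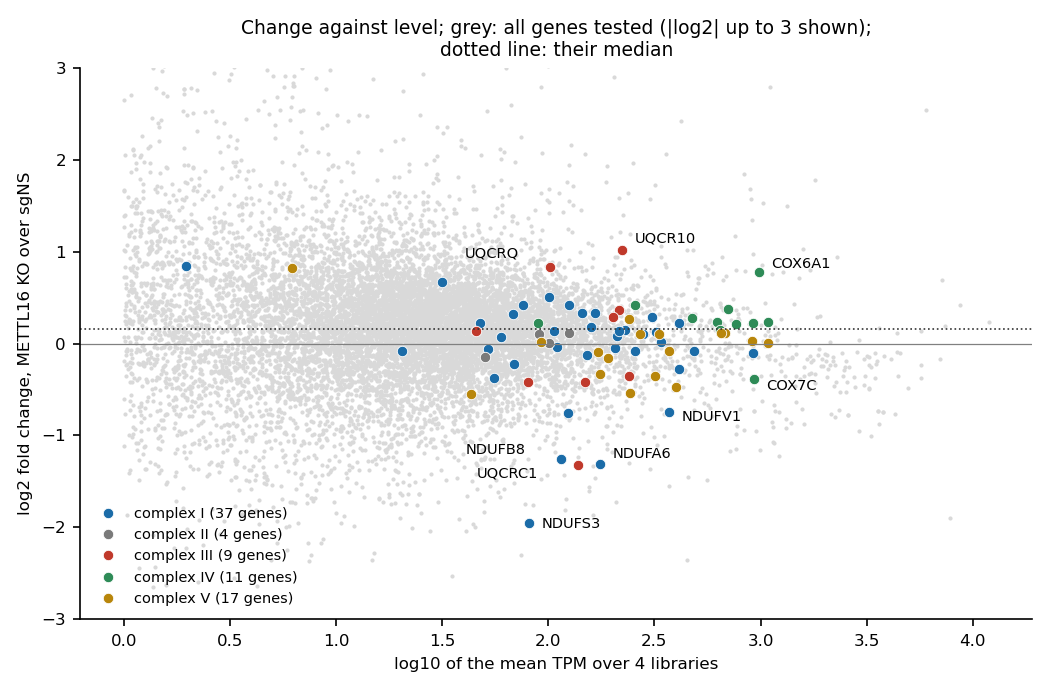
Log2 fold change of METTL16 KO over sgNS (vertical axis) against the log10 of the mean TPM over the 4 libraries (horizontal axis), with all 11971 tested genes in grey and the respiratory chain genes coloured by complex. The complex III genes spread from UQCRC1 at -1.33 to UQCR10 at 1.02, while the complex IV genes, at the right among the most abundant, lie in a narrow band with COX6A1 above it and COX7C below it.

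Complex IV, cytochrome c oxidase, moved most evenly. Of its 11 tested genes 10 rose (90.9%, beside 50.1% of all genes) and 1 fell. The groups did not overlap for any of them, as was so for 87.4% of all genes. The median log2 fold change was 0.23. Part of this depended on scaling: under median-ratio scaling 6 were higher, 1 was lower and 4 did not pass, with a median of 0.067, and under quantile normalization 9 were higher and 1 was lower. The summed level was 6822 and 6873 TPM in sgNS and 8085 and 8072 TPM in METTL16 KO, a change of 17.98% (log2 ratio 0.24, and 0.073 under median-ratio scaling). COX6A1, a subunit that binds adenine nucleotides (chromosome 12, plus strand, 120438090 to 120440737), measured 740.3 and 705 TPM in sgNS against 1229 and 1245 TPM upon METTL16 KO. It rose by 0.78 on the log2 scale (SE 0.030, adjusted p = 3.17e-09) and by 0.61 under median-ratio scaling. COX6C (0.42, adjusted p = 6.06e-07) and the zinc-binding COX5B (0.37, adjusted p = 9.07e-07) were next. COX5A, COX4I1, COX6B1, COX7A2, COX8A and the supercomplex factor COX7A2L lay between 0.22 and 0.28. Of these, COX6B1 (0.058) and COX8A (0.050) did not pass under median-ratio scaling. COX7A2L passed neither there (0.061) nor under quantile normalization (0.087). COX4I1, the largest nuclear subunit, measured 1002 and 987 TPM in sgNS against 1183 and 1154 TPM upon METTL16 KO. EMC8, which overlaps it, had a log2 fold change of 0.73 (adjusted p = 9.17e-08). COX7B was called higher at 0.15 (adjusted p = 0.00189) and turned to -0.016 under median-ratio scaling.

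COX7C was the exception. This small subunit (chromosome 5, plus strand, 86617928 to 86620962) measured 1006 and 1092 TPM in sgNS against 822 and 787 TPM upon METTL16 KO, with a log2 fold change of -0.38 (SE 0.039, adjusted p = 5.22e-06) and a lower call under the 3 scalings. It had been the most abundant gene of the complex in sgNS, and COX6A1 was above it in both METTL16 KO libraries: COX6A1 stood at 0.736 and 0.646 times COX7C in sgNS and at 1.50 and 1.58 times in METTL16 KO. The pair joins the largest rise of the complex and its only fall, so a shifted ratio follows from that choice. The tissue isoforms of the complex stayed silent or nearly so. COX4I2, COX6A2 and COX7B2, which belong to lung, to heart and muscle, and to testis, were listed at 0 in all libraries, and COX6B2, COX7A1 and COX8C did not exceed 0.47 TPM in any library, so none of these 6 was tested.

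Complex V differed from both, with more genes lower than higher. Of its 17 tested genes 5 rose (29.4%, beside 50.1% of all genes), 8 fell (47.1%, beside 25.6%) and 4 did not pass. Under the 3 scalings alike 2 were higher (11.8%, beside 34.8%) and 8 lower (47.1%, beside 25.3%). The median log2 fold change was 0.0031, which turned to -0.16 under median-ratio scaling. In the catalytic F1 head the alpha and beta subunits, which alternate in the ring, differed. ATP5A1 (alpha) measured 464 and 465 TPM in sgNS against 340.2 and 329 TPM upon METTL16 KO, a log2 fold change of -0.47 (SE 0.031, adjusted p = 1.69e-07). ATP5B (beta) measured 909.9 and 896 TPM in sgNS against 932 and 909 TPM upon METTL16 KO, so the groups overlapped and it did not pass (0.028, adjusted p = 0.371, and -0.14 under median-ratio scaling). The ratio of beta to alpha transcript was 1.96 and 1.93 in sgNS and 2.74 and 2.76 in METTL16 KO. ATP5D (delta) fell by 0.33 (adjusted p = 3.44e-05), ATP5C1 (gamma) was called higher at 0.11 (adjusted p = 0.0217) but turned to -0.056 under median-ratio scaling, and ATP5E (epsilon) did not pass (0.0031, adjusted p = 0.925, and -0.16 under median-ratio scaling).

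The membrane rotor is a ring of subunit c, for which 3 genes encode the same mature protein. ATP5G2 measured 284 and 292 TPM in sgNS against 208 and 187 TPM upon METTL16 KO (log2 fold change -0.54, SE 0.047, adjusted p = 1.41e-06). ATP5G1 measured 359 and 352 TPM in sgNS against 286 and 269.6 TPM upon METTL16 KO (-0.36, adjusted p = 4.73e-06). ATP5G3, the least abundant, measured 91.8 and 92.3 TPM in sgNS against 93.3 TPM in both METTL16 KO libraries (0.019, adjusted p = 0.664, and -0.15 under median-ratio scaling). Their sum went from 735 and 737 TPM to 587 and 550.1 TPM, a change of -22.7%. In the peripheral stalk, which holds the head still, ATP5F1, ATP5J and ATP5O fell by 0.091, 0.15 and 0.079, and ATP5H did not pass (0.099, adjusted p = 0.0886, and -0.066 under median-ratio scaling). The small membrane subunits ATP5L, ATP5I and ATP5J2 were called higher, at 0.27, 0.12 and 0.12, of which the last pair turned to -0.048 and -0.049 under median-ratio scaling. Both remaining tested symbols are not subunits of the enzyme despite their names. ATP5SL, now DMAC2, an assembly factor of complex I, fell from 50.5 and 52.1 TPM to 35.4 and 34.4 TPM (-0.55, SE 0.049, adjusted p = 1.64e-06). ATP5S, now DMAC2L, went from 4.07 and 4.81 TPM to 8.21 and 7.60 TPM (0.82, SE 0.11, adjusted p = 4.46e-05).

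**Figure D3:**
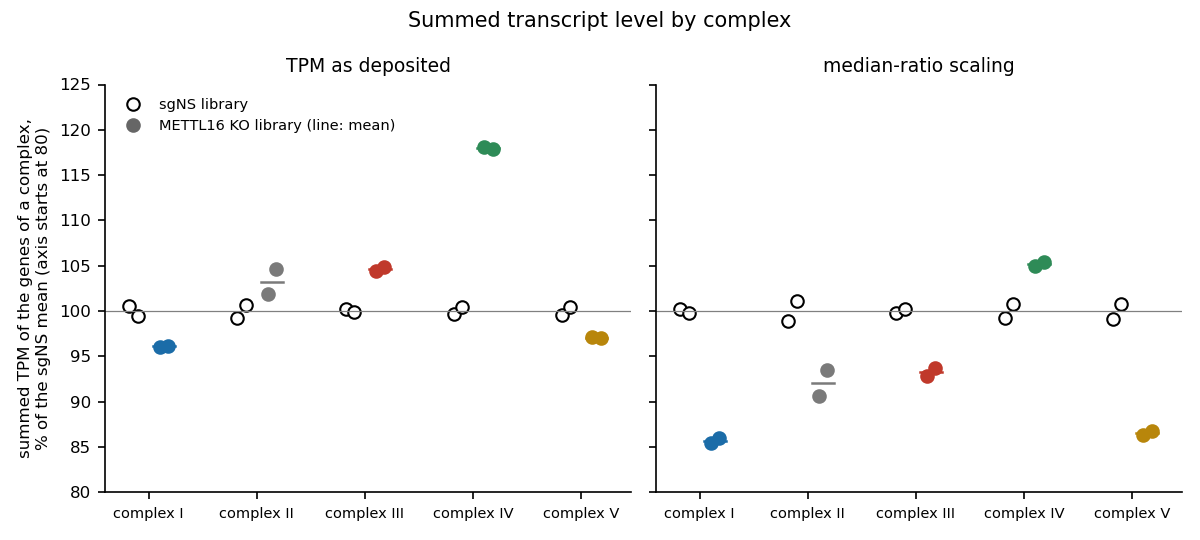
Summed TPM of the tested genes of each complex in each library, as a percentage of the mean of the 2 sgNS libraries (vertical axis, from 80), with TPM as deposited on the left and after median-ratio scaling on the right; open circles are sgNS, filled circles METTL16 KO, short lines the METTL16 KO mean. The METTL16 KO sums of complex IV stood at 118.1% and 117.9% as deposited and at 105.0% and 105.4% after scaling, and were above those of the other complexes in both panels, while complexes II and III crossed from above to below the sgNS mean.

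To set sequence beside these changes, promoters were taken from the RefSeq annotation of GRCh38.p14, which held one for 62 of the 78 tested genes, and searched on both strands from 250 bases before to 50 after the start for short motifs of factors known to bind respiratory gene promoters. TGCGCA, a core of the NRF1 motif, was present in 20 of the 62 (32.3%), beside 1574 of the 9766 tested genes with a promoter and 9.76% of all 27305 promoters. AAGATGGC, the YY1 type, was present in 11 (17.7%, beside 6.46% and 3.52%). CCGGAAG, the ETS type bound by GABPA, was present in 20 (32.3%, beside 22.7% and 12.2%), and GGGCGG, the SP1 type, in 39 (62.9%, beside 76.8% and 48.3%). The share with TGCGCA was the same among the genes that rose (11 of 33) and those that fell (7 of 21). AAGATGGC was found in 3 of the 33 and in 6 of the 21, and CCGGAAG in 13 of the 33 and 6 of the 21, and these differences were not tested. A match is a run of letters and not a site shown to be bound.

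The promoters of 4 genes are shown to set both directions side by side: NDUFS3 and UQCRC1 had the 2 largest falls, UQCR10 the largest rise, and COX6A1 the largest rise within complex IV. Each runs over the 250 bases before the RefSeq start, from 5′ to 3′ on the strand of the gene, with matches to the motifs above in capitals. They lie at chr11:47578824-47579073 (plus), chr3:48609647-48609896 (minus), chr22:29767119-29767368 (plus) and chr12:120437863-120438112 (plus).
NDUFS3: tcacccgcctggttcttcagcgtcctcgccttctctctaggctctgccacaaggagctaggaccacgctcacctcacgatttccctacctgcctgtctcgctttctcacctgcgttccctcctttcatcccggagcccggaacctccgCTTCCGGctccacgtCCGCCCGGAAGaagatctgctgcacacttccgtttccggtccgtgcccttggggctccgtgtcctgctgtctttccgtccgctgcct
UQCRC1: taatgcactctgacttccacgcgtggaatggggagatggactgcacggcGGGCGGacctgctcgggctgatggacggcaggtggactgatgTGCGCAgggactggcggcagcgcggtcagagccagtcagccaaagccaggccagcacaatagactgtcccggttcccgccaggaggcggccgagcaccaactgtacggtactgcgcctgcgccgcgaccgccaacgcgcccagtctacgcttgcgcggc
UQCR10: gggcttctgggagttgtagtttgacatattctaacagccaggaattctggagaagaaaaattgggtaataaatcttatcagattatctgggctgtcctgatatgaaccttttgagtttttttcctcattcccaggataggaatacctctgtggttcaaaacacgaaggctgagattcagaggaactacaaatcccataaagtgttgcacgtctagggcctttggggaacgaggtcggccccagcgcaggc
COX6A1: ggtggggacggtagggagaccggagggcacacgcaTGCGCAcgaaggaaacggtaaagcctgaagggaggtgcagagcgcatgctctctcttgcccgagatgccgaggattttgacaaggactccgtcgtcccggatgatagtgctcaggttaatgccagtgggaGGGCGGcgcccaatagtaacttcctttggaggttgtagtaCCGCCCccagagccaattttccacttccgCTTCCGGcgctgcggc
Counting back from -1 just before the start, NDUFS3 held CCGGAAG at -102 and -83, the second overlapping GGGCGG at -87. UQCRC1 held TGCGCA at -159 and GGGCGG at -201, with an AAGATGGC beyond the printed letters, after the start. COX6A1 held TGCGCA at -215, CCGGAAG at -16 and GGGCGG at -85 and -45. UQCR10 held none of the 4 motifs, and its GC content was 45.2%, beside 60.0% to 67.2% in the other promoters shown. UQCRQ, the next largest rise of complex III, is not shown. Its promoter held CCGGAAG at -54 and had a GC content of 60.4%. The NDUFS3 promoter, from RefSeq, lies inside the GENCODE locus given above, and sequence farther upstream was not searched.

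The factors that assemble the chain, and the pathways that feed it, were also mixed. The lists behind the counts below are given in the processing notes. Beside them stand all genes tested, of which 50.1% rose and 25.6% fell, or 36.4% and 36.5% under median-ratio scaling. A count near these shares is not particular to its list. Of 16 complex I assembly factors 9 rose and 5 fell, and the median change was 0.17 on the log2 scale (0.0043 under median-ratio scaling). NDUFAF6 went from 10.5 and 9.22 TPM to 21.0 and 19.0 TPM (1.01, adjusted p = 9.77e-07) and TMEM70 rose by 0.87 (adjusted p = 3.58e-07). TIMMDC1, which builds the membrane arm, fell from 154 and 143 TPM to 79.4 and 80.04 TPM (-0.89, adjusted p = 1.90e-08), and NUBPL, which delivers iron-sulphur clusters to complex I, fell by 0.73 (adjusted p = 3.49e-08). Of 33 assembly factors of complexes II to V 22 rose and 4 fell, with a median of 0.29 (0.12 under median-ratio scaling, with 15 higher and 8 lower). COX10, which makes the heme of complex IV, rose by 0.88 (adjusted p = 9.56e-08), whereas LYRM7, which matures the Rieske protein, fell by 0.61 (adjusted p = 4.63e-05) and TTC19, also of complex III, by 0.47 (adjusted p = 3.70e-05). SCO2, a copper chaperone, measured 0 and 0.68 TPM in sgNS against 1.43 and 1.90 TPM upon METTL16 KO, too low for a reliable fold.

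Of 21 nuclear regulators of respiratory genes 11 rose, 1 fell and 9 did not pass, with a median of 0.16, the same as over all genes, and -0.0022 under median-ratio scaling, where 8 were higher and 7 lower. Of the factors named for the motifs above, NRF1, YY1 and GABPA did not pass with TPM as deposited. NRF1 had a log2 fold change of -0.020 (-0.18 under median-ratio scaling). YY1 had a log2 fold change of -0.0063 (-0.17 under median-ratio scaling) and GABPA of 0.062 (-0.10 under median-ratio scaling). SP1 fell by 0.12 (adjusted p = 0.0459). GABPB2, a partner of GABPA (0.85, adjusted p = 0.000940), and C10orf2, the mitochondrial helicase Twinkle (0.82, adjusted p = 1.05e-06), rose most. GABPB2 was low, at 1.63 and 1.37 TPM in sgNS against 2.95 and 2.61 TPM upon METTL16 KO. Its change was 0.56 under quantile normalization, so its fold is uncertain. The coactivator PPARGC1A was low, at 1.96 and 2.66 TPM in sgNS against 2.25 and 2.56 TPM upon METTL16 KO. TFAM, which packages and transcribes mitochondrial DNA, did not pass with TPM as deposited (-0.068, adjusted p = 0.203). Its change was -0.23 under median-ratio scaling and -0.20 under quantile normalization.

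Of 13 genes of coenzyme Q synthesis 6 rose and 5 fell (median -0.0086, and -0.17 under median-ratio scaling, with 4 higher and 7 lower), from PDSS1, which starts the side chain (1.24, adjusted p = 3.52e-08), to COQ2, which attaches it (-0.83, adjusted p = 3.10e-06). Of 18 TCA cycle and pyruvate dehydrogenase genes 8 rose and 9 fell (median -0.11), while under median-ratio scaling 3 were higher and 10 lower (median -0.27). IDH3A rose by 0.86 (adjusted p = 1.48e-07), while DLAT, a subunit of pyruvate dehydrogenase, fell by 0.99 (adjusted p = 5.53e-09) and FH, the fumarase next to complex II in the cycle, by 0.83 (adjusted p = 3.58e-08). Of 10 further respiratory genes whose symbols the rule does not reach 6 rose, 1 fell and 3 did not pass, while under median-ratio scaling 3 were higher and 4 lower. NDUFAB1, the acyl carrier protein that sits beside NDUFA6, fell by 0.11 (adjusted p = 0.0104), and CYC1, the cytochrome c1 of complex III, did not pass (-0.0099, adjusted p = 0.821).

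**Figure D4:**
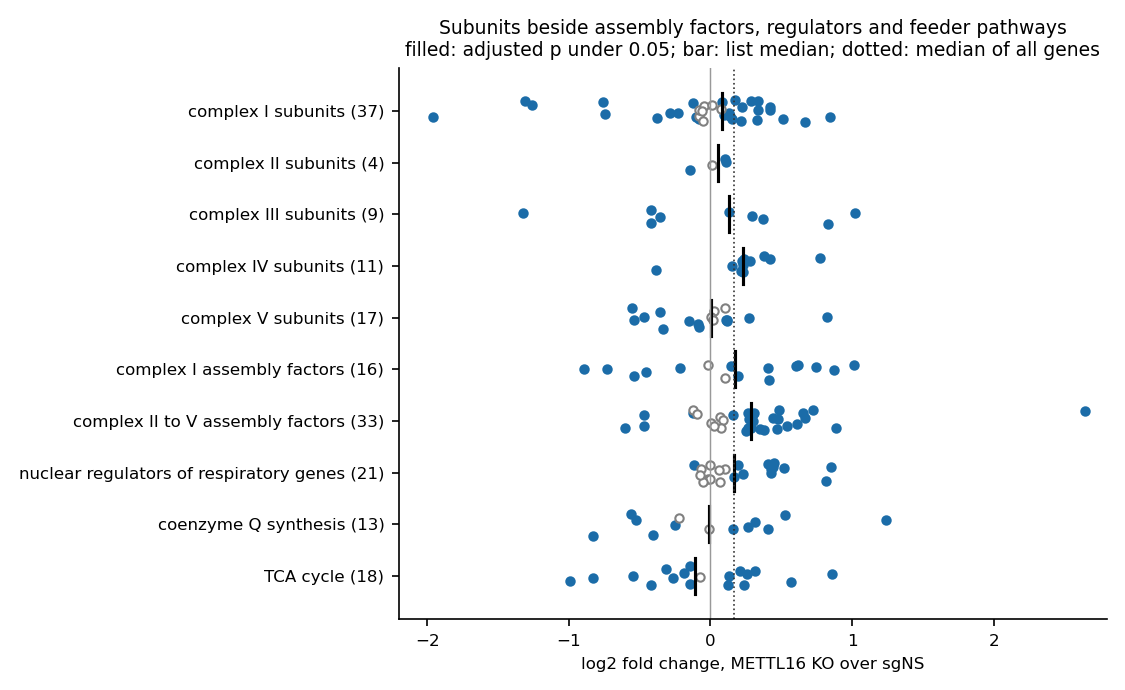
Log2 fold change of METTL16 KO over sgNS for each tested gene (points) of the 5 complexes and of 5 related lists, with the number of genes in parentheses; filled points passed an adjusted p under 0.05, open points did not, bars are list medians and the dotted line is the median of all genes (0.16). All lists hold called genes on both sides of 0, and the medians of complex IV (0.23) and of the assembly factors of complexes II to V (0.29) lie to the right of the dotted line, with that of the complex I assembly factors (0.17) close beside it.

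The changes did not follow the level or the length of the transcripts closely. Across the 78 tested genes Spearman's rho of the log2 fold change was 0.022 with the mean TPM and -0.19 with the median transcript length, given as a description over genes that share the same 4 libraries. The tested respiratory chain transcripts were short, with a median length of 661 bases beside 1936 over all tested genes, and of like GC content (49.0% beside 49.2%). Of the shorter 39 genes 25 rose and 11 fell, and of the longer 39 genes 16 rose and 14 fell. Among all genes tested 50.1% rose and 25.6% fell. All 86 genes had a position in the annotation, and they lay on 22 chromosomes.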

How the data were processed

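The deposited data are 1 table of TPM by gene symbol, with 1 column for each of 4 libraries, made by the authors. Per their methods and notes, reads were trimmed with Cutadapt, mapped to GRCh38 with STAR and quantified with RSEM (versions not given in the sources used here). The methods call the unit RPKM, but the deposited columns each sum to 1000000. The labels name both Ribozero RNA and a stranded kit for mRNA. From these values log2(TPM + 0.1) was computed for the 11971 of 18806 genes with a mean of at least 1 TPM, and the groups were compared with limma 3.58.1 (R 4.3.3) with a mean-variance trend and no block. The code was tested on simulated data. Members, lists and motifs were chosen with earlier results of these data known.

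The genes named were, per complex, up to 3 called members with the largest rise and 3 with the largest fall, the core, F1, subunit c and complex II genes, paralogs, and from each list up to 2 rises and 2 falls. The overlapping genes, further members, NRF1, YY1, GABPA, TFAM, PPARGC1A, NDUFAB1, CYC1, AFP, APOA2, CD68 and CD14 were named after their values were seen. The lists were written from general knowledge: assembly factors (NDUFAF, SDHAF, UQCC, COA and COX10 to COX20 genes and the like), regulators (NRF1, GABP, PGC-1, TFAM and others), coenzyme Q synthesis and the TCA cycle. Alternatives were other pseudocounts, filters, scalings and models, a replicate block and leaving out each library. The core TGCGCA and the calls shared by 3 scalings were added after the data were seen. Positions are from GENCODE release 44 (GRCh38), promoters from RefSeq (GRCh38.p14), and figures were drawn with matplotlib 3.10.9. No sample was left out. Some genes counted above are not reported by name here.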

Additional observations from a re-analysis of the deposited data

How the results depend on the processing

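The counts depend on scaling more than on any other choice. Against 41 higher, 21 were higher under median-ratio scaling, 26 with an unmoderated model and 21 in the calls shared by 3 scalings. At the fold threshold 0 were higher under median-ratio scaling and 0 under quantile normalization, where UQCR10 stood at 0.85 and 0.94 (and at 0.99 without sgNS replicate 1), and 6 with a 1.5-fold threshold. The median log2 fold change moved from 0.10 to -0.066 and 0.020 under these scalings. Leaving out 1 library gave 30 to 40 higher, 19 to 26 lower and a median of 0.075 (without sgNS replicate 1) to 0.10, where the lone library of a group is assumed to vary like the other group. Limma without trend gave 28 higher and 19 lower. The share of all genes called is given above for the 3 scalings only. Counts from other models, or with a library left out, have no such share beside them. They are not read as particular to these genes.

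Of the 59 tested members named, these reversed under median-ratio scaling: NDUFS8 -0.039, NDUFV2 -0.15, NDUFA4 -0.067, SDHB -0.053, SDHC -0.16, SDHD -0.065, COX7B -0.016, ATP5B -0.14, ATP5C1 -0.056, ATP5E -0.16, ATP5G3 -0.15, ATP5H -0.066, ATP5I -0.048, ATP5J2 -0.049 and UQCRB -0.033. Under quantile normalization NDUFV2 (-0.0069), SDHC (-0.12), SDHD (-0.049), ATP5G3 (-0.12) and UQCRB (-0.0044) reversed, without sgNS replicate 1 NDUFV2 (-0.024), SDHC (-0.0073) and ATP5E (-0.021), and without METTL16 KO replicate 2 NDUFV2 (-0.0036) and ATP5E (-0.011). Over the libraries left out in turn, NDUFV2 ranged from -0.024 to 0.048, SDHC from -0.0073 to 0.026 and ATP5E from -0.021 to 0.027. In all, 671 of 766 comparisons of a named member with an alternative kept direction and side of the threshold. Other filters, limma without trend, the unmoderated model and the replicate block leave the fold change as it is. Those alternatives could change only the side of the threshold, so this count is no measure of how stable the directions are.

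The labels number the replicates alike in both groups, and the deviations of same-numbered libraries correlated at -0.045, so no shared shift was seen. With 2 libraries per group the crossed pairs mirror this value. It cannot show whether same-numbered libraries were prepared together. With the replicate block 40 were higher and 26 lower. TPM keeps no depth, so no counting error can be given, and the precision of low genes such as NDUFA4L2 is unknown.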
